A study of Mus musculus with 8 samples.

Results

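R-spondins, their Lgr receptors and the Wnt co-receptors Lrp5 and Lrp6 set how strongly a cell can answer a Wnt signal. The 9 mouse genes described here are Rspo1, Rspo2, Rspo3, Rspo4, Lgr4, Lgr5, Lgr6, Lrp5 and Lrp6, taken by symbol from 56748 genes in the count table. All 9 were among the 21508 genes that passed the filter on low counts and were tested. The data are 8 bulk RNA libraries of tdTomato-positive cells sorted from the mandibular molars of mice at postnatal day 10, after a tamoxifen pulse at postnatal day 3. In 4 libraries the genotype is Ctnnb1(-/-), a conditional knockout of the beta-catenin gene (cKO). In the other 4 it is Ctnnb1(+/-), a conditional heterozygote (cHet), so the controls also lack 1 copy of the gene and no wild-type library was analysed here. The labels call the cells CXCL12+ apical papilla, the soft tissue below the growing root, and give the tissue as dental pulp. The sources used here name neither the promoter that drives the recombinase nor any pooling of animals. Separate animals are not stated for the libraries, so each p-value reflects library-to-library spread, part of which may be technical.

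Wnt proteins act through Frizzled receptors together with Lrp5 or Lrp6, and the signal stabilises beta-catenin. The membrane E3 ligases Znrf3 and Rnf43 remove Frizzled and Lrp proteins from the cell surface. R-spondins are secreted proteins that bind an Lgr receptor and one of these ligases, which clears the ligase and leaves more Wnt receptors in place. R-spondins therefore amplify a Wnt signal and do not replace it. In teeth, Wnt signalling is known to take part in crown patterning, root formation and odontoblast differentiation.

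Each library held 44444033 to 50051392 counts, with 25146 to 30308 genes detected. Ctnnb1 stood at 277 ± 39.2 CPM in cKO and 257 ± 40.2 CPM in cHet (CPM, counts scaled to the library total with trimmed-mean factors, SD, n = 4 each), so its count over the whole gene does not separate the labels. Reads from exons outside the deletion enter that count, and the sources used here do not name the deleted exons. Cxcl12, the gene in the cells' label, rose to 826 ± 238 CPM in cKO, against 149 ± 91.5 CPM in cHet (edgeR adjusted p = 0.0497), a call lost with RLE factors (0.0549) and in 6 of 8 leave-one-out fits. The 7 apical papilla markers summed to 2543 to 4604 CPM in cKO and 423 to 1079 CPM in cHet (exact permutation p = 0.0286, two-sided, the smallest that 4 against 4 allow). The 16 general mesenchyme markers summed to 14287 to 28283 CPM in cKO and 4058 to 12753 CPM in cHet (exact permutation p = 0.0286). Most of this sum came from Col3a1, Col1a1 and Col1a2, with means of 7604, 5558 and 3412 CPM in a mean cKO sum of 20312 CPM. The groups overlapped for each of these collagen genes. Transcripts of other tissues were abundant in both groups. The 12 olfactory epithelium markers summed to 5486 to 10667 CPM in cKO and 7062 to 12357 CPM in cHet, with Ugt2a1 near 0. Of the 10 tested, 9 had negative log2 fold changes and none was called by edgeR. At an unadjusted edgeR p under 0.05, 4 were lower, where 6.33% of all tested genes were lower. Bpifb9b went the other way and raised the cKO sum, at 1965 ± 1975 CPM in cKO and 234 ± 245 CPM in cHet. The 6 ameloblast markers summed to 4699 to 8535 CPM in cKO and 2308 to 11432 CPM in cHet. The 5 macrophage and leukocyte markers summed to 55.7 to 137 CPM in cKO and 90.7 to 548 CPM in cHet. In bulk RNA, fewer cells of a type and less RNA per cell cannot be told apart.

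None of the 9 genes passed the edgeR test over all genes (adjusted p under 0.05), beside 1.13% of all tested genes. At an unadjusted p under 0.05, 5 of the 9 were higher in cKO and none was lower, where 10.8% of all tested genes were higher and 6.33% lower. These 5 were Rspo1, Rspo4, Lgr6, Lrp5 and Lrp6. DESeq2 called Rspo1, Rspo4, Lgr6 and Lrp5 higher, beside 9.46% of genes in that test, and limma voom called Rspo1, Rspo4 and Lrp5 higher, beside 5.96%. At an adjusted p under 0.10, edgeR called Rspo4 and Lrp5 higher, beside 3.27%. The cKO and cHet libraries did not overlap for Rspo4 and Lrp5, and 6.46% of all tested genes had every cKO library above every cHet library. The median log2 fold change of the 9 genes was 0.59, beside −0.03 over all tested genes.

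**Figure D1:**
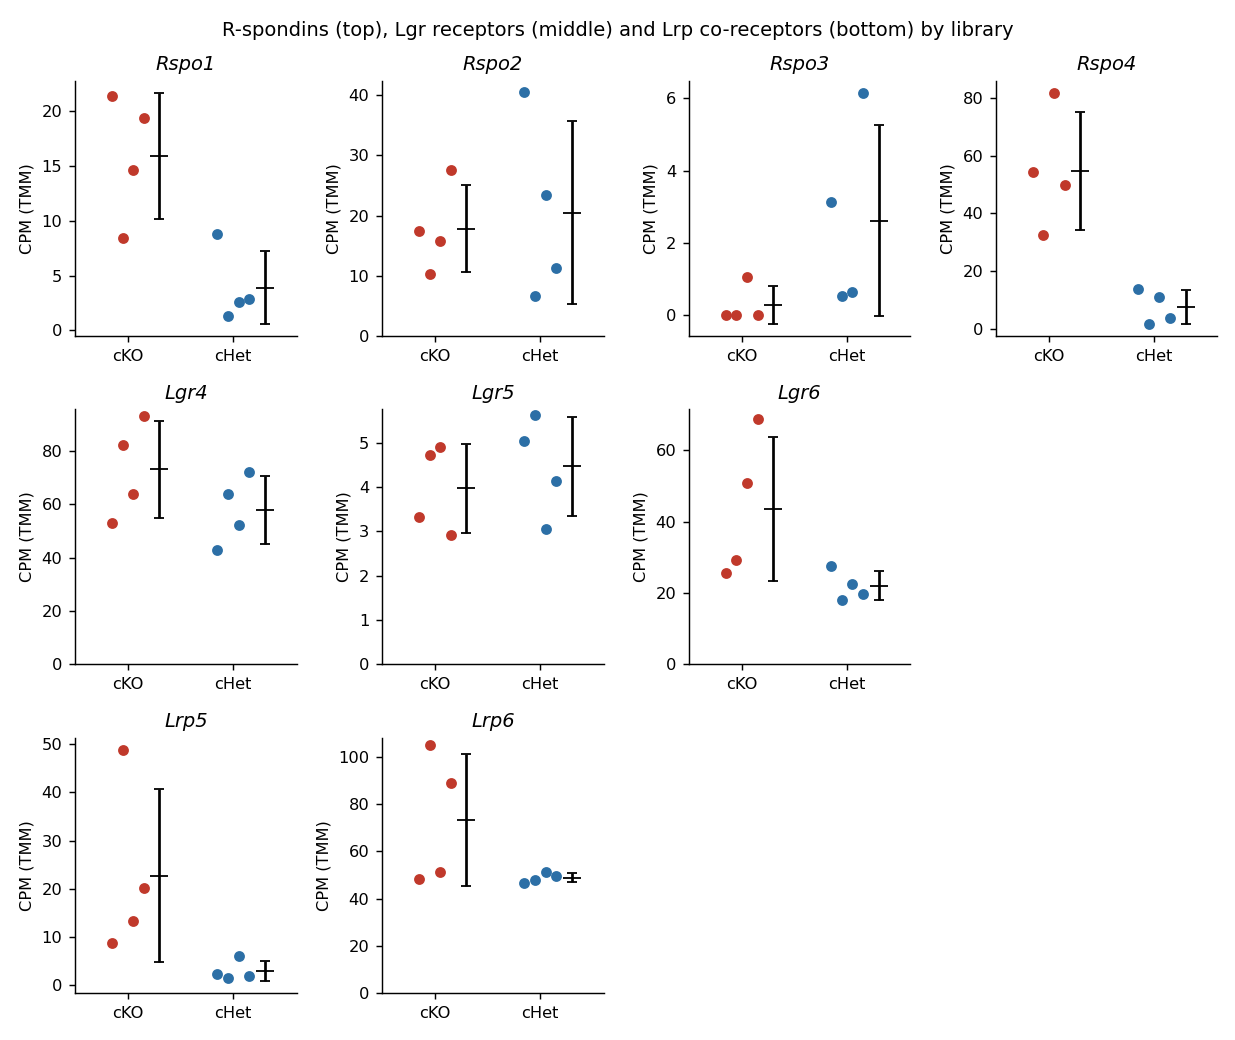
Level of each of the 9 genes in CPM (vertical axes, linear, a separate scale per gene). Points are libraries, with cKO left of cHet, and the black bar and line beside them are the mean and SD of 4 libraries. All cKO points of Rspo4 (32.6 to 81.9 CPM) and Lrp5 (8.69 to 48.9 CPM) lie above all cHet points (1.46 to 13.7 CPM and 1.48 to 6.05 CPM).

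Among the R-spondin ligands, Rspo4 showed the widest separation. Rspo4 (ENSMUSG00000032852.4), a ligand whose loss in humans causes absent nails, had 54.2 CPM in cKO7, 32.6 in cKO9, 81.9 in cKO14 and 49.7 in cKO15, against 13.7 CPM in cHet8, 1.46 in cHet11, 10.9 in cHet12 and 3.80 in cHet14. The lowest cKO library was thus above the highest cHet library, and the cHet libraries themselves were spread widely. The mean was 7.32-fold higher in cKO, with a log2 fold change of 2.87 (SE 0.66, 95% interval 1.36 to 4.38, edgeR adjusted p = 0.0821, exact permutation p = 0.0286). The adjusted p was 2.78e-05 by DESeq2 and 0.0142 by voom.

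Rspo1 (ENSMUSG00000028871.8), known in mice for its part in ovarian development, had 21.4 CPM in cKO7, 8.44 in cKO9, 14.6 in cKO14 and 19.4 in cKO15, against 8.83 CPM in cHet8, 1.27 in cHet11, 2.61 in cHet12 and 2.89 in cHet14. The groups touched at their edges, where cKO9 was just below cHet8. The log2 fold change was 2.03 (SE 0.60, 95% interval 0.66 to 3.40, edgeR adjusted p = 0.149). The adjusted p was 0.00533 by DESeq2 and 0.0249 by voom. Without cHet8 the log2 value was 2.82 with an edgeR adjusted p of 0.0525.

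Promoter sequences were taken for these ligands because both were called higher by DESeq2 and voom and because beta-catenin acts on DNA through TCF and LEF factors. They are the 250 bases before the RefSeq start of each gene on GRCm38.p6, plus strand. Rspo1 lies at chr4:124986180-124986429 and Rspo4 at chr2:151842677-151842926. Capitals mark matches to CCAAT, the GC box GGGCGG, the E-box CACGTG, the TATA box TATAAA or the TCF/LEF letters CTTTGAT and CTTTGAA, each searched on both strands.
Rspo1: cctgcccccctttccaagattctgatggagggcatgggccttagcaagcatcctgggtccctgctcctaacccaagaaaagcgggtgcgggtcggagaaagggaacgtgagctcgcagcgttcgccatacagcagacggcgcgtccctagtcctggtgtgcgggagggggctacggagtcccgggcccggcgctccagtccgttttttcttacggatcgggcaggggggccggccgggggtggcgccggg
Rspo4: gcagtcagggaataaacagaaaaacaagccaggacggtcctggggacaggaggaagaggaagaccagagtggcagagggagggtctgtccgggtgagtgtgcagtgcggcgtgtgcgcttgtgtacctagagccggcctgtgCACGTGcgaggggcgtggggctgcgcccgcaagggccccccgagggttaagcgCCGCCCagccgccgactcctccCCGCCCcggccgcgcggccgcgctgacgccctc
The Rspo4 window held 1 E-box and 2 GC boxes on the reverse strand, and the Rspo1 window held none of the letters searched. Both were rich in G and C, at 69.6% for Rspo4 and 66.8% for Rspo1. The TCF/LEF letters occur in 7.48% of 32851 promoter windows of the same length, the E-box in 6.02% and the GC box in 32.7%. Windows for 4 of the 9 genes were in the table. Those of Lgr4, with 2 CCAAT matches, and Lgr6, with 1 GC box, also had no TCF/LEF match. No match says only that these letters are not in this window.

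Rspo2 (ENSMUSG00000051920.8), needed for limb development in mice, had 17.4 CPM in cKO7, 10.3 in cKO9, 15.8 in cKO14 and 27.7 in cKO15, against 40.6 CPM in cHet8, 6.64 in cHet11, 23.5 in cHet12 and 11.4 in cHet14. The cKO range lay wholly inside the cHet range. The log2 fold change was −0.20 (SE 0.55, 95% interval −1.45 to 1.04, edgeR adjusted p = 0.897), an interval that spans changes in either direction. The sign turned without cHet8 (0.36) and by voom (0.30).

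Rspo3 (ENSMUSG00000019880.11), needed for blood vessel development in the mouse embryo, had 0 or 1 counts in 3 cKO libraries. There was 1 count in cKO7, 0 in cKO9, 49 in cKO14 and 1 in cKO15, against 162 counts in cHet8, 29 in cHet11, 31 in cHet12 and 285 in cHet14. In CPM this was 0.0223, 0, 1.06 and 0.0235 in the cKO libraries, against 3.12, 0.550, 0.658 and 6.15 in the cHet libraries. The 0 counts in cKO9 allow up to 0.0671 CPM, from 3 counts, which covers counting error only. The fitted log2 fold change was −3.22 (SE 1.56, 95% interval −6.78 to 0.34, edgeR adjusted p = 0.338), and it ranged over the leave-one-out fits from −7.19 without cKO14 (adjusted p = 0.137) to −2.36 without cHet14 (adjusted p = 0.605). DESeq2 gave an adjusted p of 0.0982. The 6 endothelium markers summed to 31.5 CPM in cKO14 and 10.3 to 12.4 CPM in the other cKO libraries, against 16.9 to 30.7 CPM in cHet. Their part in the Rspo3 values was not tested. An antisense gene, Gm48159, overlaps 404 of the 3090 exon bases of Rspo3 in GENCODE M21, and the library kit does not mark strand, so reads of the pair cannot be told apart there.

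The make-up of the R-spondin family is given by library, as a description with no test. Levels of different genes were compared as CPM per kilobase of exon, and each gene's share of the family sum was taken in each library. Rspo4 made up 65.8 ± 8.06% of R-spondin transcripts in cKO (range 57.6 to 75.9%) and 29.3 ± 9.68% in cHet (range 21.9 to 42.7%; SD, n = 4 each). Rspo2 made up 10.2 ± 3.39% in cKO and 40.4 ± 7.15% in cHet, with a cKO maximum of 14.9% and a cHet minimum of 30.4%. Rspo1 shares were 23.8 ± 5.87% in cKO and 20.1 ± 5.27% in cHet. Rspo3 reached 0.757% at most in cKO, and lay between 1.99% and 27.2% in cHet. The leading R-spondin was thus Rspo4 in all 4 cKO libraries and Rspo2 in all 4 cHet libraries. The lead was narrow in cHet12, with 42.8% for Rspo2 and 42.7% for Rspo4.

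**Figure D2:**
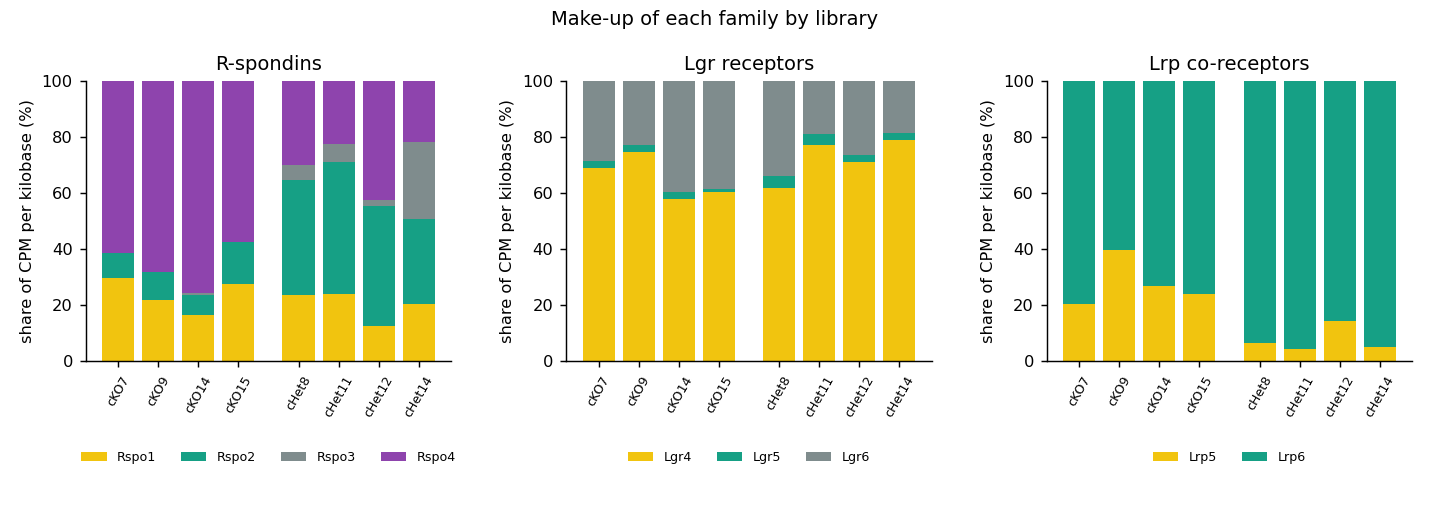
Make-up of each family by library, as the share of CPM per kilobase of exon (vertical axis, percent), with the 4 cKO libraries left of the 4 cHet libraries. Rspo4 makes up 57.6 to 75.9% of the R-spondin bars in cKO and 21.9 to 42.7% in cHet, and Lrp5 20.2 to 39.5% of the Lrp bars in cKO and 4.18 to 14.2% in cHet.

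Of the Lgr receptors, Lgr4 was the leading transcript in every library. Lgr4 (ENSMUSG00000050199.14), the broadly expressed R-spondin receptor, had 53.1 CPM in cKO7, 82.4 in cKO9, 63.8 in cKO14 and 93.1 in cKO15, against 43.1 CPM in cHet8, 63.7 in cHet11, 52.4 in cHet12 and 72.2 in cHet14. The groups overlapped, with cKO9 and cKO15 above every cHet library. The log2 fold change was 0.34 (SE 0.22, 95% interval −0.16 to 0.84, edgeR adjusted p = 0.488). Among the 9 genes, the Lgr4 profile over the 8 libraries was closest to that of Lrp6, and both varied little (SD 0.37 and 0.46 on the log2 scale).

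Lgr6 (ENSMUSG00000042793.14), known from skin and hair follicle progenitors in mice, had 25.7 CPM in cKO7, 29.2 in cKO9, 50.8 in cKO14 and 68.9 in cKO15, against 27.6 CPM in cHet8, 18.2 in cHet11, 22.7 in cHet12 and 19.8 in cHet14. Only cKO7 was below the highest cHet library. The log2 fold change was 0.98 (SE 0.32, 95% interval 0.25 to 1.72, edgeR adjusted p = 0.182), with adjusted p of 0.0251 by DESeq2 and 0.0586 by voom. The 8 dental epithelium markers summed to 518 to 754 CPM in cKO and 612 to 840 CPM in cHet (exact permutation p = 0.2). Their part in the Lgr6 values was not tested.

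Lgr5 (ENSMUSG00000020140.16), a stem cell marker of the intestine and itself a Wnt target there, had 3.32 CPM in cKO7, 4.72 in cKO9, 4.91 in cKO14 and 2.92 in cKO15, against 5.05 CPM in cHet8, 5.61 in cHet11, 3.06 in cHet12 and 4.15 in cHet14. The groups overlapped almost wholly. The log2 fold change was −0.17 (SE 0.32, 95% interval −0.89 to 0.55, edgeR adjusted p = 0.842). Per kilobase, Lgr5 made up 2.14 ± 0.705% of Lgr transcripts in cKO and 3.26 ± 0.897% in cHet. Lgr4 made up 65.5 ± 7.76% and Lgr6 32.4 ± 8.06% in cKO, against 72.3 ± 7.70% and 24.5 ± 7.33% in cHet.

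The Lrp co-receptors differed in how far the groups stood apart. Lrp5 (ENSMUSG00000024913.17), whose variants alter bone mass in humans, had 8.69 CPM in cKO7, 48.9 in cKO9, 13.3 in cKO14 and 20.1 in cKO15, against 2.22 CPM in cHet8, 1.48 in cHet11, 6.05 in cHet12 and 1.84 in cHet14. All cKO libraries were above all cHet libraries, and cKO9 stood highest by far. The mean was 7.85-fold higher in cKO, with a log2 fold change of 2.97 (SE 0.68, 95% interval 1.43 to 4.52, edgeR adjusted p = 0.0804, exact permutation p = 0.0286). The adjusted p was 4.11e-05 by DESeq2 and 0.0253 by voom. Without cKO9 the log2 value was 2.27 (edgeR adjusted p = 0.0679), and without cHet12 it was 3.62 (0.0890).

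Lrp6 (ENSMUSG00000030201.16), the co-receptor needed for most Wnt responses in the mouse embryo, had 48.3 CPM in cKO7, 105 in cKO9, 51.1 in cKO14 and 88.9 in cKO15, against 46.8 CPM in cHet8, 47.7 in cHet11, 51.2 in cHet12 and 49.4 in cHet14. The cHet libraries were tightly grouped, while cKO7 and cKO14 were at their level and cKO9 and cKO15 above it. The log2 fold change was 0.59 (SE 0.25, 95% interval 0.01 to 1.16, edgeR adjusted p = 0.280). Without cKO9 it was 0.36 (adjusted p = 0.365). Per kilobase, Lrp5 made up 27.6 ± 8.37% of the Lrp5 and Lrp6 sum in cKO and 7.40 ± 4.64% in cHet, so Lrp6 was the larger part in all 8 libraries.

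In the order of mean level per kilobase, the cKO libraries had Rspo4 (23.0 ± 8.61 CPM per kilobase), Lgr4 (12.4 ± 3.06), Rspo1 (8.23 ± 2.97), Lgr6 (6.37 ± 2.94), Lrp6 (5.36 ± 2.06), Rspo2 (3.48 ± 1.42), Lrp5 (2.34 ± 1.85) and Lgr5 (0.387 ± 0.0971), then Rspo3 (0.0898 ± 0.170). The cHet order was Lgr4 (9.83 ± 2.17 CPM per kilobase), Rspo2 (4.01 ± 2.96), Lrp6 (3.57 ± 0.142), Lgr6 (3.22 ± 0.605), Rspo4 (3.15 ± 2.44), Rspo1 (2.01 ± 1.73), Rspo3 (0.848 ± 0.854), Lgr5 (0.435 ± 0.109) and Lrp5 (0.297 ± 0.218). Ranges of neighbours in these orders overlapped, except those of Lrp5 and Lgr5 in cKO. Rspo4 thus had the highest mean in cKO, while 4 other members stood above it in cHet.

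The summed general mesenchyme markers were higher in cKO beside these differences, although edgeR called only Prrx1 of the 16. At an unadjusted p under 0.05, 10 of them were higher and Dcn was lower, with a log2 fold change of −1.04. The fit was repeated with these markers taken into account. With the mean mesenchyme score as a covariate, the log2 fold change was 1.41 for Rspo4 (adjusted p = 0.467), 0.82 for Rspo1 (adjusted p = 0.876) and 2.94 for Lrp5 (adjusted p = 0.466). In the same fit Rspo2 had −1.56 (adjusted p = 0.228) and Lgr6 0.27 (adjusted p = 0.985), against −0.20 and 0.98 with genotype alone. The Lrp5 value thus stayed close to that with genotype alone, while the Rspo4, Rspo1 and Lgr6 values were smaller and the Rspo2 value was further below 0. In the Lrp5 fit, cKO9 combined 48.9 CPM of Lrp5 with 14287 CPM of mesenchyme markers, the lowest sum of the cKO libraries. Over the other libraries Lrp5 rose with the marker sum. A fit with the score but without cKO9 was not run. With the olfactory score as a covariate the values were 2.71 for Rspo4, 1.90 for Rspo1 and 2.97 for Lrp5. When libraries were scaled to the summed mesenchyme markers, the median of all tested genes moved to −1.32, so values on that scale are given beside 0 and this median. The scaling shifts the genes together, so a place above the median largely repeats the fit with genotype alone. Rspo4 had 1.99, Lrp5 2.10 and Rspo1 1.02, all above 0. Lgr6 had −0.36, Lrp6 −0.68 and Lgr4 −1.06, below 0 and above the median. Rspo2, at −1.23, was close to the median, and Lgr5 (−1.55) and Rspo3 (−4.41) were below it. No member was called in these fits, beside 0.0558% of genes with the mesenchyme score, 0.0279% with the olfactory score and 0.0232% with mesenchyme scaling. At an unadjusted p under 0.05 there were 3 members with the mesenchyme score (Rspo4 and Lrp5 higher, Rspo2 lower), beside 7.34% of all tested genes. With the olfactory score there were 4, all higher, beside 11.2%. With mesenchyme scaling there were 5, of which 2 were higher and 3 lower, beside 51.8% of all genes, a share close to that of the members.

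**Figure D3:**
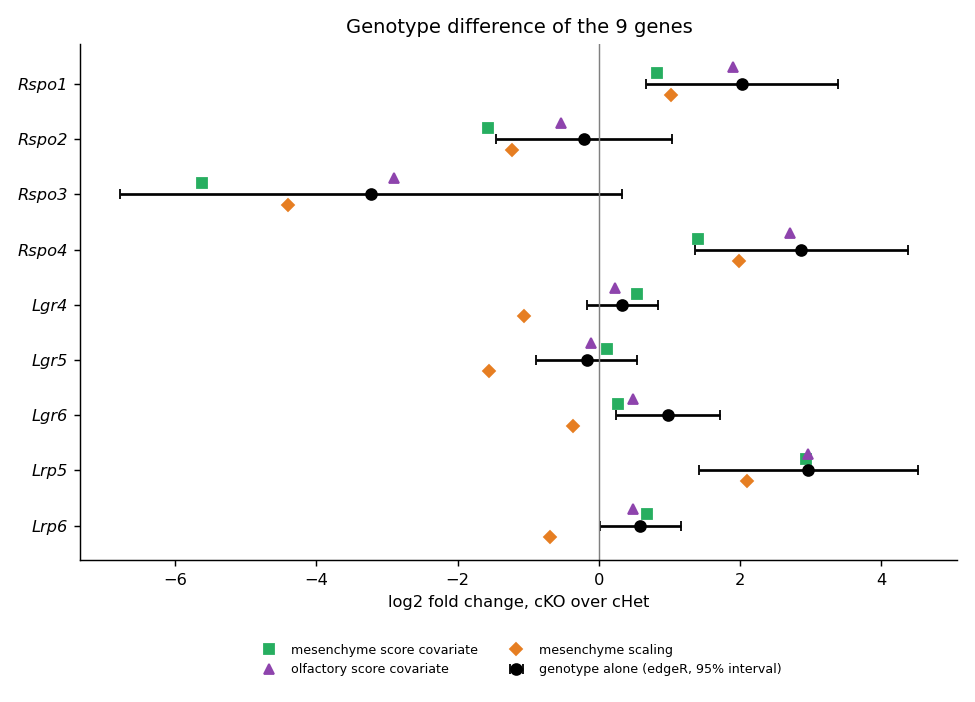
Log2 fold change of cKO over cHet for each gene (horizontal axis). Black points and lines are the edgeR estimate with genotype alone and its 95% interval, and coloured symbols are the values with the mesenchyme score, the olfactory score or mesenchyme scaling. Lrp5 stays between 2.10 and 2.97, while Rspo4 lies between 1.41 and 2.87.

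**Figure D4:**
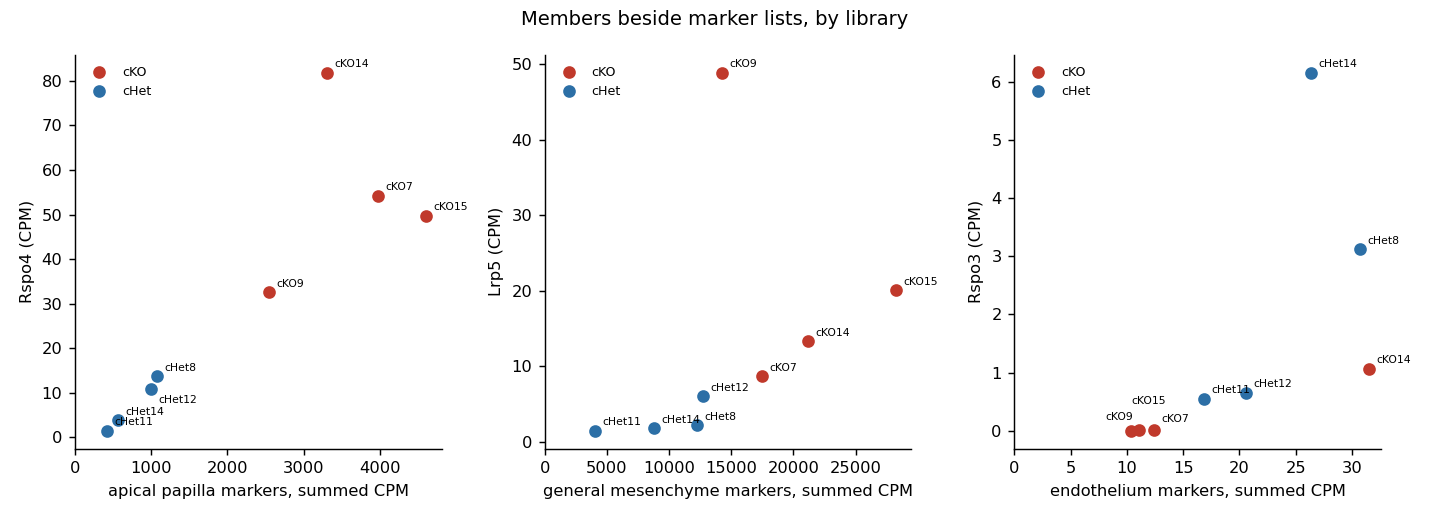
CPM of Rspo4, Lrp5 and Rspo3 (vertical axes) against the summed CPM of apical papilla, general mesenchyme and endothelium markers (horizontal axes), 1 point per library. In the middle panel cKO9 has 48.9 CPM of Lrp5 at 14287 CPM of mesenchyme markers, the lowest marker sum of the cKO libraries. Over the other libraries of that panel Lrp5 rises with the marker sum. In the right panel cKO14 stands apart from the other cKO libraries.

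Placed beside the marker sums, Rspo4 was low where the apical papilla sum was low. In cHet11, with 423 CPM of these markers, it had 1.46 CPM, and in cHet8, with 1079 CPM, it had 13.7 CPM. In cKO the highest Rspo4 library, cKO14, had 3309 CPM of the markers and cKO15, with the highest sum of 4604 CPM, had 49.7 CPM of Rspo4. Their part in the Rspo4 difference was not tested. For Lrp5 the library with the highest value, cKO9, had the lowest mesenchyme and papilla sums of the cKO libraries. In the other libraries Lrp5 rose in the order of the mesenchyme sum. It went from 1.48 CPM in cHet11 (4058 CPM of these markers) to 6.05 CPM in cHet12 (12753 CPM). From there it went to 8.69 CPM in cKO7 (17486 CPM) and 20.1 CPM in cKO15 (28283 CPM). The part of the mesenchyme markers in the Lrp5 difference was not tested.

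The genes whose centred log2 CPM profile over the 8 libraries was nearest to each member were found among 12465 candidates with a mean of at least 5 CPM. Rspo3 and Lgr5, below that mean, were left out of this search. Nearest to Rspo4 were Bmp2 (root mean square difference 0.43 on the log2 scale), Cox4i2 (0.46) and Rdh10 (0.47), and the SD of Rspo4 itself was 2.02. Nearest to Rspo1 were Sytl4 (0.20), Sfrp2 (0.22) and Prss35 (0.24). Nearest to Lrp5 were Daam2 (0.53), Fam167a (0.61) and Pianp (0.62), and the SD of Lrp5 itself was 1.78. Nearest to Rspo2 were Hnmt (0.25), Fam49a (0.27) and Stra6 (0.29). Nearest to Lgr6 were the zinc finger genes Zfp189 (0.17), Zfp354c (0.18) and Zfp334 (0.19). For Lgr4 the nearest were Ranbp6 (0.12), Xiap (0.14) and Nbeal1 (0.14), and for Lrp6 Setbp1 (0.12), Tenm1 (0.16) and Zfp827 (0.17). Between members, Lgr4 and Lrp6 were the closest pair (0.27) and Rspo1 and Rspo4 the closest pair of ligands (0.78). The SD was 0.37 for Lgr4 and 0.46 for Lrp6, against 1.49 for Rspo1 and 2.02 for Rspo4. The measure is not scaled to the SD and is small between genes that vary little, so these pairs cannot be ranked by shared behaviour.

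Other genes that act with these proteins were read from the same fit. The counts of each list stand beside 10.8% of all tested genes higher and 6.33% lower at an unadjusted p under 0.05. None of the 6 genes of receptor turnover was called by edgeR, with 1 at an unadjusted p under 0.05 (median log2 fold change 0.07). Znrf3, the ligase that R-spondins remove, stood at 5.11 ± 1.14 CPM in cKO and 6.29 ± 1.41 CPM in cHet (edgeR adjusted p = 0.649), and Rnf43, the related ligase, had a log2 fold change of −0.24 (SE 0.23). Dvl2, a cytoplasmic adaptor of Frizzled, stood at 58.4 ± 2.40 CPM in cKO and 43.3 ± 3.93 CPM in cHet, without overlap (edgeR adjusted p = 0.0897).

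Cell surface proteoglycans and a BMP receptor, taken as candidates for binding R-spondins, made up a list of 7. None of these was called by edgeR and 5 had an unadjusted p under 0.05, all higher in cKO (median 0.74). Sdc1, the proteoglycan syndecan 1, stood at 499 ± 184 CPM in cKO and 114 ± 51.0 CPM in cHet (adjusted p = 0.0528). Gpc4, a glypican, stood at 106 ± 31.9 CPM in cKO and 41.5 ± 15.8 CPM in cHet (adjusted p = 0.0869). Gpc3 stood at 531 ± 241 CPM in cKO and 185 ± 105 CPM in cHet. Sdc4, reported as an Rspo3 receptor in Xenopus, stood at 74.8 ± 21.4 CPM in cKO and 44.9 ± 11.4 CPM in cHet (adjusted p = 0.199).

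Of 10 Frizzled receptors none was called by edgeR, and 4 had an unadjusted p under 0.05, all higher in cKO (median 0.48). Fzd7 had a log2 fold change of 1.49 (SE 0.31), Fzd2 of 1.25 (SE 0.27), Fzd8 of 0.59 (SE 0.17) and Fzd9 of 2.29 (SE 0.89). Of 13 tested Wnt ligands none was called, with 2 higher and 1 lower at an unadjusted p under 0.05 (median −0.16). Wnt9a, a ligand known from joint formation, stood at 41.9 ± 17.6 CPM in cKO and 9.26 ± 4.41 CPM in cHet, without overlap (edgeR adjusted p = 0.0592). Wnt5a, a mainly noncanonical ligand, stood at 106 ± 40.3 CPM in cKO and 53.0 ± 17.1 CPM in cHet, and Wnt10a, a ligand with a known part in tooth development, at 5.60 ± 3.40 CPM in cKO and 14.2 ± 6.28 CPM in cHet (adjusted p = 0.179 and 0.219).

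Extracellular partners of Lrp5 and Lrp6 did not share a direction. Of 8 tested genes none was called by edgeR, 3 were higher and 1 lower at an unadjusted p under 0.05 (median −0.10). Dkk1, a secreted inhibitor that binds Lrp5 and Lrp6, stood at 22.1 ± 8.70 CPM in cKO and 3.14 ± 2.98 CPM in cHet (edgeR adjusted p = 0.0798). Sostdc1, another secreted Lrp ligand known from tooth patterning, stood at 176 ± 94.4 CPM in cKO and 52.8 ± 30.6 CPM in cHet (adjusted p = 0.150). Mesd, the chaperone that folds Lrp5 and Lrp6, stood at 62.1 ± 17.1 CPM in cKO and 37.3 ± 7.29 CPM in cHet (adjusted p = 0.181). Kremen1, a Dkk co-receptor that removes Lrp6 from the surface, stood at 34.0 ± 7.26 CPM in cKO and 53.5 ± 15.1 CPM in cHet (adjusted p = 0.222).

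Genes that phosphorylate Lrp5 and Lrp6, or serve that step, had small differences. None of 11 was called and 1 had an unadjusted p under 0.05 (median 0.15). This was Ccny, cyclin Y, which directs a kinase to Lrp6, at 31.0 ± 4.26 CPM in cKO and 22.9 ± 3.18 CPM in cHet (adjusted p = 0.226). Of 11 Wnt feedback targets none was called by edgeR, and 2 were lower at an unadjusted p under 0.05, Notum and Nkd1. The median was −0.30 with 9 of 11 values negative, in a list that holds Lgr5, Znrf3 and Rnf43. Notum, which inactivates Wnt proteins, stood at 6.35 ± 1.28 CPM in cKO and 17.8 ± 6.66 CPM in cHet (edgeR adjusted p = 0.0801). Nkd1, an intracellular antagonist, stood at 29.7 ± 9.40 CPM in cKO and 56.2 ± 18.5 CPM in cHet (edgeR adjusted p = 0.205).

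In the wider LDL receptor family, 1 of 9 genes was called by edgeR. Lrp1 (ENSMUSG00000040249.16), an endocytic receptor, rose to 269 ± 74.4 CPM in cKO, against 67.6 ± 27.1 CPM in cHet (3.99-fold, edgeR adjusted p = 0.0377, exact permutation p = 0.0286). This call was kept without cKO9 or cHet8 and lost without any 1 of the other 6 libraries, with adjusted p between 0.0281 and 0.147 over these fits. It was also lost with the mesenchyme score (0.225), the olfactory score (0.0914) and mesenchyme scaling (0.0961). The median of the family was −0.05. Lrp4, a receptor for sclerostin and related ligands, stood at 7.77 ± 3.95 CPM in cKO and 8.07 ± 3.90 CPM in cHet (adjusted p = 0.971). The glycoprotein hormone and relaxin receptors, relatives of the Lgr genes, were low, and the 3 of 5 that were tested stood below 2 CPM in the means of both groups.

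**Figure D5:**
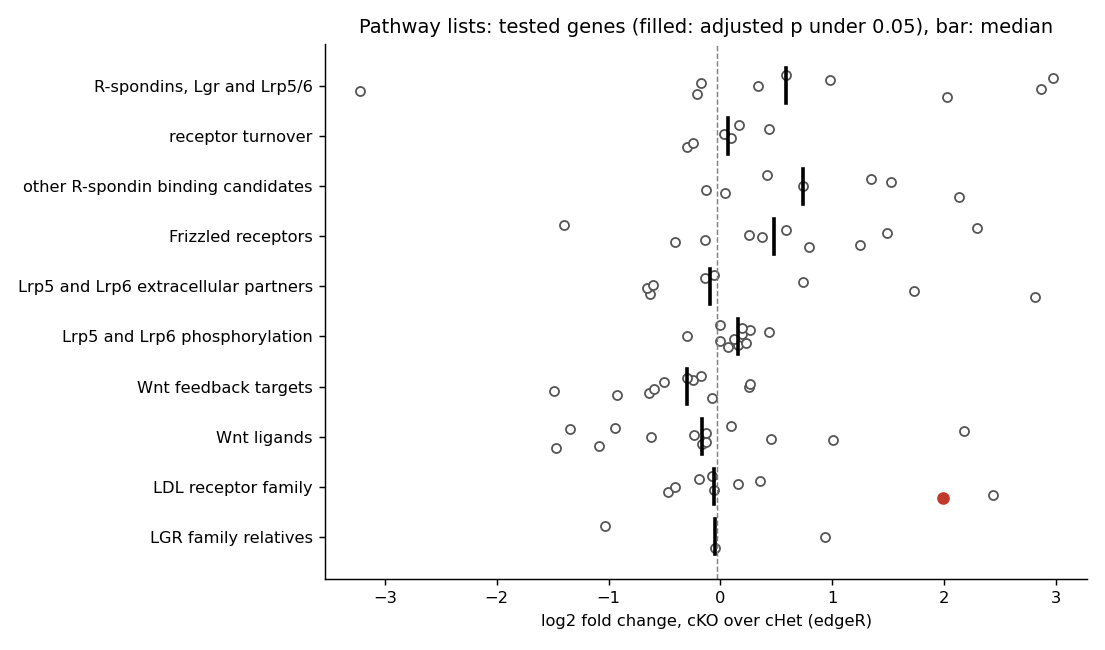
Log2 fold change of cKO over cHet (horizontal axis) for each tested gene of the 9 members and of 9 related lists (rows). Filled points passed the edgeR test (adjusted p under 0.05), short bars are list medians, and the dashed line is the median of all tested genes (−0.03). Lrp1 in the LDL receptor family is the filled point, and the members' median is 0.59.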

How the data were processed

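RNA was counted in 8 libraries, 4 cKO and 4 cHet. The authors deposited raw counts, 1 whole number per Ensembl gene and library. Trim Galore, STAR and the builds GRCm39 and mm39 appear in the submitters' processing notes, which in the form used here give no counting tool, annotation or version. Gene identifiers, stripped of version, were looked up in a mouse gene name table (52073 of 56748 matched), and the identifier with most counts stood for each symbol. Column names show the group but match no sample title, so each column was assigned to its group only.

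The main test was edgeR 4.0.16 under R 4.3.3 (TMM factors, default expression filter, quasi-likelihood F test, genotype alone, two-sided, Benjamini-Hochberg adjusted p over 21508 genes). The SE is the size of the log2 fold change over the square root of F, which is approximate. Alternatives were DESeq2 1.42.0, limma 3.58.1 voom with quality weights, RLE factors, no filter, 1 CPM in 4 libraries, a threshold of 0.10, mesenchyme and olfactory scores (mean log2 CPM, prior count 2), mesenchyme scaling and leaving out each library. Single values were compared by exact permutation over 70 assignments. The common biological coefficient of variation was 0.553. The code was tested on simulated data. Exon lengths are from GENCODE M21 (GRCm38), and were used for levels per kilobase only. Members and lists were chosen with earlier results of these data known. Named genes are the 9 members, called genes or up to 4 with the smallest p of each list, and the 3 nearest profiles. Lrp4, Gm48159, Ugt2a1, Bpifb9b, Col1a1, Col1a2, Col3a1, Prrx1 and Dcn were named after their values were seen.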

Additional observations from a re-analysis of the deposited data

Results flagged for a closer look

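In 4 of 44 groups of 4 libraries checked, the highest library stood far from the other 3, where chance alone gives about 1 in 20. Rspo3 in cKO14 was 1.06 CPM, against 0 to 0.0235 CPM in the other cKO libraries. The summed endothelium markers in cKO14 were 31.5 CPM, against 10.3 to 12.4 CPM in the other cKO libraries. Lrp5 in cHet12 was 6.05 CPM, against 1.48 to 2.22 CPM in the other cHet libraries. The summed Schwann cell markers in cKO7 were 217 CPM, against 60.8 to 75.6 CPM in the other cKO libraries.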

How the results depend on the processing

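No paired analysis was possible because the columns of the count table carry none of the replicate numbers of the labels. The edgeR count of 244 called genes (232 higher, 12 lower in cKO) was 2580 by DESeq2 (1709 and 871), 1552 by voom (1281 and 271), 766 at a threshold of 0.10, 12 with the mesenchyme score (9 and 3), 6 with the olfactory score (6 and 0) and 5 with mesenchyme scaling (3 and 2). Leaving out 1 library gave 0 to 960 calls, with 0 without cKO14, cHet12 or cHet14 and 960 without cKO9, and between 2562 and 5049 genes (11.4% to 22.7%) had an unadjusted p under 0.05. Of the 9 members, DESeq2 called 4, voom 3 and the 0.10 threshold 2 (Rspo4 and Lrp5), all higher in cKO. None was called in the other edgeR fits, leave-one-out fits included (0 to 0), where 3 to 6 had an unadjusted p under 0.05, beside 7.34% of all genes with the mesenchyme score and 51.8% with mesenchyme scaling. Signs turned for Rspo2 by voom (0.30) and without cHet8 (leave-one-out range −0.50 to 0.36) and for Lgr5 with the mesenchyme score (0.12). Mesenchyme scaling lowers the median of all genes to −1.32 by its construction, which puts Lgr4 (−1.06), Lgr6 (−0.36) and Lrp6 (−0.68) below 0, while they stay above that median. Rspo1, Rspo4 and Lrp5 were positive in all 16 other fits, and Rspo3 was negative in 15, since it did not pass the filter of 1 CPM in 4 libraries. Lrp1 and Cxcl12 lost their call in 6 of 8 leave-one-out fits and in the score and scaling fits. The causes of the other differences were not tested. The Rspo3 estimate is limited by 0 or 1 counts in 3 cKO libraries and by spread between libraries (leave-one-out range −7.19 to −2.36).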

Other observations

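Among markers of other tooth and stromal cells, the odontoblast sum was 93.6 to 230 CPM in cKO and 106 to 334 CPM in cHet (exact permutation p = 0.171). The osteoblast sum was 310 to 1009 CPM in cKO and 250 to 745 CPM in cHet (exact permutation p = 0.4). Pericyte and smooth muscle markers summed to 178 to 339 CPM in cKO and 110 to 291 CPM in cHet (exact permutation p = 0.486). All 5 macrophage and leukocyte markers had negative log2 fold changes, and none was called by edgeR. All 5 had an unadjusted edgeR p under 0.05, where 6.33% of all tested genes were lower at that level. Their sum had an exact permutation p of 0.114.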
